A study of Mus musculus with 8 samples.

Results

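The genes described here are 10 genes of MHC class I antigen presentation, picked by name from a table of 22564 genes: H2-K1, H2-D1, H2-Q4, H2-Q10, H2-T23, H2-M3, B2m, Tap1, Tap2 and Tapbp. RNA-Seq was performed on whole liver from 4 male mice fed a normal diet (ND mice 1, 3, 6 and 7) and 4 fed a high-fructose diet (HFrD mice 1, 2, 5 and 7). All were C57BL/6J mice of 10 to 11 weeks of age, with no transgene or drug named, and the diets lasted 2 weeks, so that the HFrD group is a short dietary model. Each library is 1 mouse. The deposited values are FPKM, a measure of fragments that takes account of the gene's length and of the size of the library, and the absolute depth is unknown.

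MHC class I molecules sit on the surface of nearly every nucleated cell and show short peptides from inside the cell to CD8+ T cells and NK cells. A polymorphic heavy chain pairs with the light chain beta-2-microglobulin. The transporter TAP carries peptides made by the proteasome into the endoplasmic reticulum, and tapasin holds the empty heavy chain beside it until a peptide is bound. Interferons raise the transcription of most genes of this pathway. In liver, hepatocytes carry little class I on their surface at rest, whereas Kupffer cells and sinusoidal endothelial cells carry more, and the hepatocyte also makes a secreted heavy chain, H2-Q10.

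The promoters of the heavy chain genes are shown first, because the members are related in sequence there as well as in the coding part. RefSeq windows on GRCm38.p6, each running from 250 bases before to 50 bases after an annotated start, were found for 9 of the 10 genes, and Tap2 had none. H2-K1 had an additional window, from a nearby start, with the same matches. The stretches below are 160 bases long, are written 5′ to 3′ on the strand of the gene, and end at the same A/T-rich box. Capitals mark matches on either strand to GGGATTCC (core of an NF-kB site), TGACG (core of the X2 box, a CRE-like element) or CCAAT (the NF-Y box, which reads ATTGG on the other strand).
H2-K1: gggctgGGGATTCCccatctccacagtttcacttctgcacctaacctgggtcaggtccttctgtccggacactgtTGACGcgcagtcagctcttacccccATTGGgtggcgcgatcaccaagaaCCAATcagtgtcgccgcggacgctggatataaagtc
H2-D1: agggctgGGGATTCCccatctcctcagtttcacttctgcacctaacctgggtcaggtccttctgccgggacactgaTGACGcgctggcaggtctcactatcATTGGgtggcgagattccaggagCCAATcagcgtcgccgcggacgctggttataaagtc
H2-Q4: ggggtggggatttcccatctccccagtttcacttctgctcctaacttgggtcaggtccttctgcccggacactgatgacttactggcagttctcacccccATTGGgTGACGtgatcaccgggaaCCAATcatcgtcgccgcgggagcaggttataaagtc
H2-Q10: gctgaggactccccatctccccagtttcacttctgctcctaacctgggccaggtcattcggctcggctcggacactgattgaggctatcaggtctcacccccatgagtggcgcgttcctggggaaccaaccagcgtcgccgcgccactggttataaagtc
These lie at chr17:34000304-34000463 on the minus strand for H2-K1, and on the plus strand at chr17:35262917-35263076 for H2-D1, chr17:35379438-35379597 for H2-Q4 and chr17:35469910-35470069 for H2-Q10. In pairwise alignment, H2-K1 and H2-D1 had 88.2% identical columns, H2-K1 and H2-Q4 85.0%, and H2-Q4 and H2-Q10 77.1%. H2-K1 and H2-D1 hold matches to all 3 letter strings, H2-Q4 lacks the match to GGGATTCC, and H2-Q10 holds none. Only exact matches were counted. At the place of GGGATTCC, H2-Q4 reads gggatttcc, with an additional T, so its lack of a match depends on the string searched. The TGACG of H2-Q4 is not at the place it has in H2-K1 and H2-D1: it follows the ATTGG in H2-Q4 and precedes it in the other two.

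Of the interferon-stimulated response element, only the core GAAANNGAAA was searched, where N is any base. Other forms of the element were not searched, so a window without this match may still hold one. It was found in the windows of B2m and H2-T23, shown in capitals below together with matches to TGACG and CCAAT.
B2m: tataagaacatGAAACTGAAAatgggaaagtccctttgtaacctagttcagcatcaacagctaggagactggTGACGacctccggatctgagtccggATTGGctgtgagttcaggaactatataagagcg
H2-T23: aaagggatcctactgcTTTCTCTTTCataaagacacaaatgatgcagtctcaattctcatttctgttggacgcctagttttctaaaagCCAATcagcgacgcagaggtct
The B2m stretch lies at chr2:122147537-122147666 on the plus strand and the H2-T23 stretch at chr17:36032732-36032841 on the minus strand. Of all 32851 RefSeq promoter windows of this length, 3.44% hold GAAANNGAAA, 1.06% GGGATTCC, 20.8% TGACG and 37.4% CCAAT. Among the 9 members with a window, 2 hold the first, 2 the second, 6 the third and 8 the last, and no match to one string overlaps a match to another. The Tap1 window has 275 bases in common with that of Psmb9, an immunoproteasome subunit gene that is read in the opposite direction. A match is a stretch of letters and not a measured binding site.

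**Figure D1:**
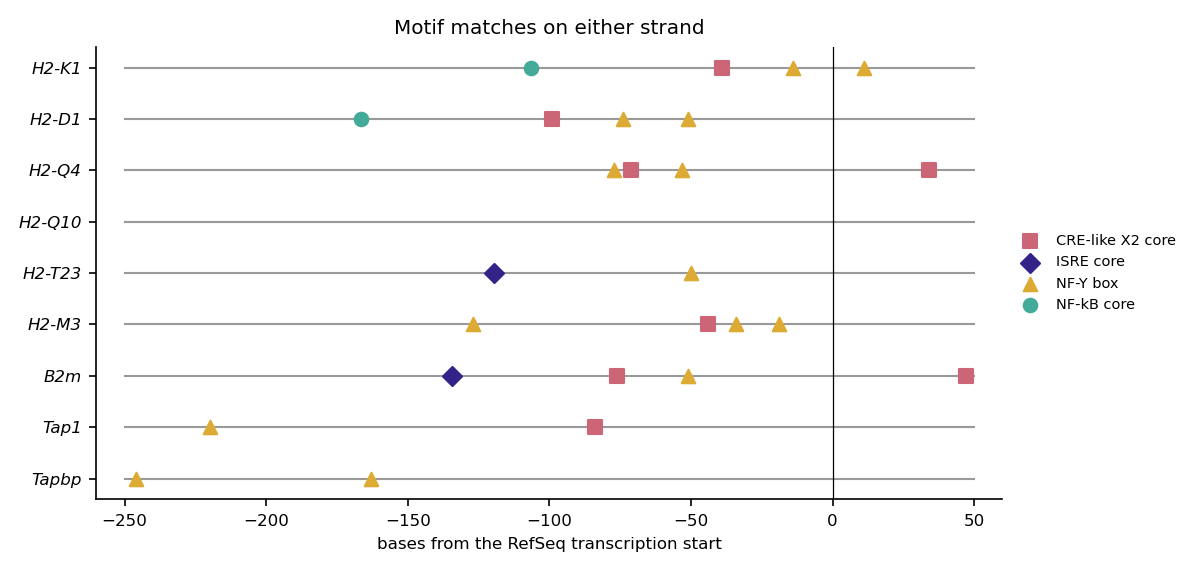
Matches to 4 short motifs in the RefSeq promoter windows of 9 members, as bases from the annotated transcription start (x axis, 250 before to 50 after) for each gene (rows). Squares mark the X2 core, diamonds the core of the interferon-stimulated response element, triangles the NF-Y box and circles the NF-kB core, on either strand, and H2-Q10 is the gene without a mark. The annotated start of the H2-K1 window drawn lies upstream of the A/T-rich box, so its marks stand further right than those of H2-D1.

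The members span a wide range of levels. In ND libraries, B2m had a mean of 919 ± 64.3 FPKM (SD, n = 4), followed by H2-Q10 at 607 ± 46.4, H2-K1 at 359 ± 21.4, H2-D1 at 121 ± 5.20 and H2-T23 at 87.0 ± 6.95 FPKM. Tapbp followed at 28.1 ± 3.09, then H2-Q4 at 7.87 ± 1.95, Tap1 at 6.71 ± 0.931, Tap2 at 4.08 ± 0.433 and H2-M3 at 1.01 ± 0.189 FPKM. Neighbours in this order did not overlap in their ND libraries except H2-Q4 and Tap1. The light chain and the 2 highest heavy chains were thus far above the peptide transporter. The order was the same in HFrD libraries, where H2-Q4 and Tap1 overlapped again.

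In the HFrD group, 4 of the 10 genes were called higher than in ND, namely H2-K1, H2-D1, H2-Q4 and Tapbp, and 0 were called lower. A call is an adjusted p under 0.05 (limma on log2(FPKM + 1), Benjamini-Hochberg over all tested genes). Over the 11476 tested genes, 9.12% were called in either direction, 5.44% higher and 3.69% lower. All 10 members passed the filter of a mean of 0.5 FPKM. Their log2 fold change was above 0 for all 10, with a median of 0.32 against 0.01 over all tested genes. The 4 called members thus lie above the background of 5.44%, whereas their changes are small, since the median of all genes called higher was 0.67. The split of the called genes depended on the scaling. As reported, 59.6% of 1047 called genes were higher. Once the medians of the libraries were set equal, 47.3% of 1166 called genes were higher, and H2-K1 was no longer called. For 6 members (H2-K1, H2-D1, H2-Q4, H2-Q10, Tap2 and Tapbp) every HFrD library was above every ND library, which held for 9.6% of all tested genes, and for 0 members every HFrD library was below every ND library, which held for 7.01%. At an unadjusted p under 0.05 there were 7 members, against 25.5% of all tested genes. In whole liver, a larger number of cells of a type and more RNA per cell cannot be told apart.

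**Figure D2:**
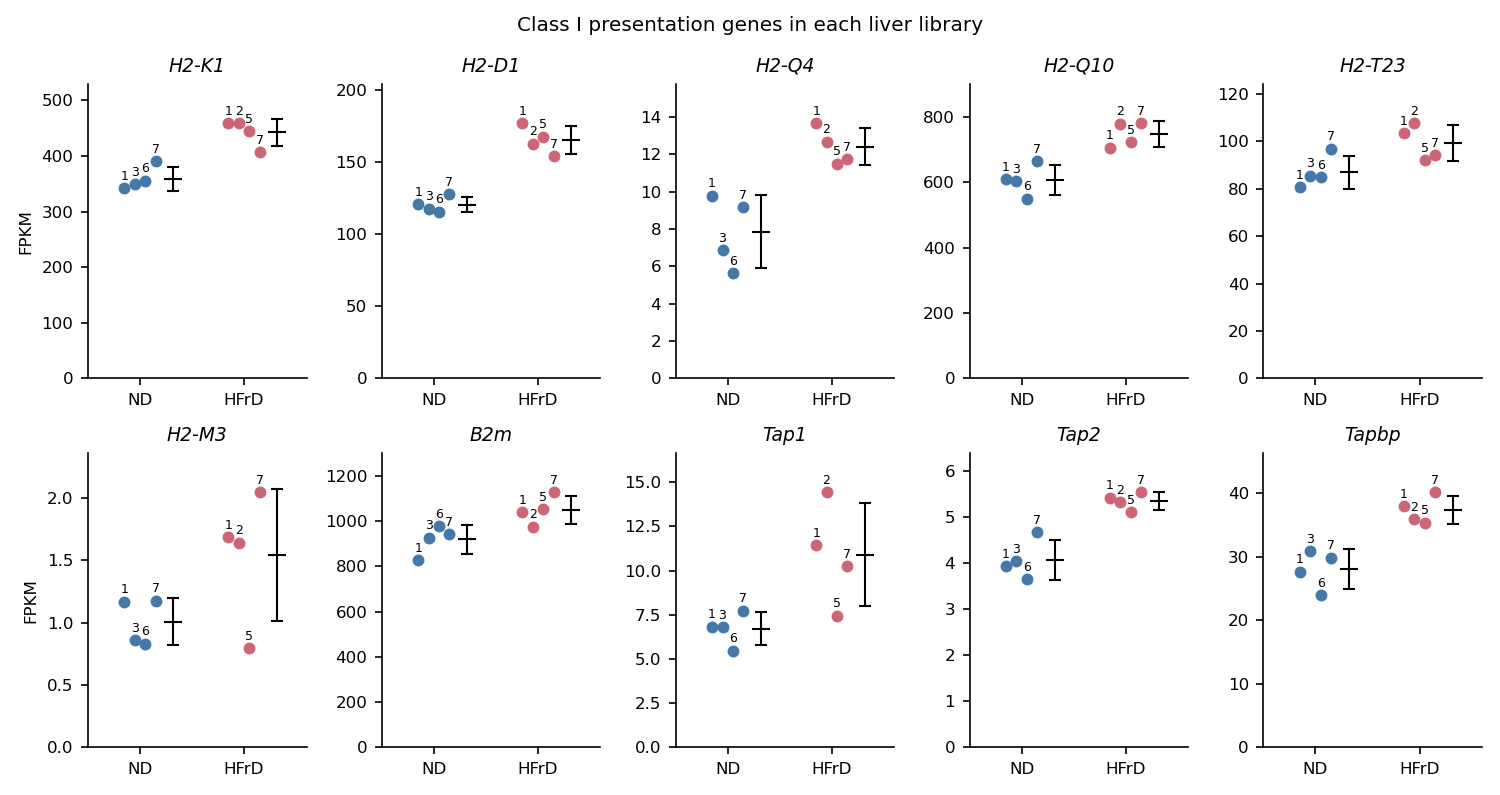
FPKM (y axes, from 0) of the 10 members in each library, with ND mice in blue and HFrD mice in red, the mouse number above each point, and the mean with SD as a black mark (n = 4 per diet). The diets do not overlap for H2-K1, H2-D1, H2-Q4, H2-Q10, Tap2 and Tapbp.

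H2-K1 and H2-D1 encode the classical heavy chains that present peptides to CD8+ T cells. H2-D1 was at 121, 118, 116 and 128 FPKM in ND mice 1, 3, 6 and 7, and at 177, 163, 168 and 154 FPKM in HFrD mice 1, 2, 5 and 7. The lowest HFrD library was 26.5 FPKM above the highest ND library. The mean rose from 121 to 165 FPKM, with a log2 fold change of 0.45 (SE 0.08, limma adjusted p = 0.00711). This call held with each of the 8 libraries left out in turn, with adjusted p of 0.00911 to 0.0277.

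H2-K1 was at 342, 349, 356 and 390 FPKM in ND mice 1, 3, 6 and 7, and at 460, 459, 445 and 408 FPKM in HFrD mice 1, 2, 5 and 7. ND mouse 7 was the highest ND library and HFrD mouse 7 the lowest HFrD library, 17.2 FPKM apart. H2-K1 rose by 23.2% of its ND mean, with a log2 fold change of 0.30 (SE 0.08, limma adjusted p = 0.0458). The call is close to the threshold and was lost when any library other than ND mouse 7 was left out, with an adjusted p of up to 0.121. The ratio of H2-K1 to H2-D1 FPKM was 2.98 ± 0.112 in ND and 2.68 ± 0.0983 in HFrD libraries (SD, n = 4), without overlap, the nearest being 2.83 in ND mouse 1 and 2.82 in HFrD mouse 2.

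H2-Q10, H2-Q4, H2-T23 and H2-M3 are non-classical heavy chain genes. H2-Q10 encodes a secreted heavy chain made mainly by the liver. It was at 609, 603, 550 and 663 FPKM in ND mice 1, 3, 6 and 7, and at 705, 779, 721 and 781 FPKM in HFrD mice 1, 2, 5 and 7. All HFrD libraries were above all ND libraries, by 41.6 FPKM at the closest. The log2 fold change was 0.30 (SE 0.09) with a 95% interval of 0.11 to 0.49, which missed the threshold (limma adjusted p = 0.0587). The mean was 23.1% above that of ND, close to the 23.2% of H2-K1, which passed.

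H2-Q4, a gene of the Qa region, was at 9.79, 6.86, 5.64 and 9.19 FPKM in ND mice 1, 3, 6 and 7. In HFrD mice 1, 2, 5 and 7 it was at 13.7, 12.7, 11.5 and 11.8 FPKM. The ND libraries were spread over a wider range than the HFrD libraries, and the groups did not overlap. H2-Q4 had the highest log2 fold change of the members, 0.62 (SE 0.15, limma adjusted p = 0.0338). The call was kept in 2 of the 8 fits with 1 library left out, those without ND mouse 1 and without ND mouse 7, with adjusted p of up to 0.0906 in the others.

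H2-T23 encodes Qa-1, which shows leader peptides of other class I molecules to the CD94/NKG2 receptors of NK cells. It was at 80.7, 85.5, 84.9 and 96.9 FPKM in ND mice 1, 3, 6 and 7, and at 104, 108, 91.9 and 94.1 FPKM in HFrD mice 1, 2, 5 and 7. ND mouse 7 lay above HFrD mice 5 and 7. The log2 fold change was 0.19 with a 95% interval of -0.01 to 0.38 (limma adjusted p = 0.213).

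H2-M3 encodes a heavy chain that binds N-formylated peptides. Its level was near the filter, at 1.17, 0.859, 0.831 and 1.17 FPKM in ND mice 1, 3, 6 and 7, and at 1.69, 1.64, 0.794 and 2.05 FPKM in HFrD mice 1, 2, 5 and 7. HFrD mouse 5 was below all ND libraries and the other 3 HFrD libraries above them. The 95% interval of the log2 fold change of 0.32 ran from -0.06 to 0.70 (limma adjusted p = 0.279).

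The light chain is shared by all these heavy chains. B2m was at 828, 928, 979 and 942 FPKM in ND mice 1, 3, 6 and 7, and at 1041, 976, 1052 and 1130 FPKM in HFrD mice 1, 2, 5 and 7. ND mouse 6 was just above HFrD mouse 2, and ND mouse 1 was the lowest of all. The log2 fold change of 0.19 had a 95% interval of -0.01 to 0.39 and was not called (limma adjusted p = 0.213). An exact two-sided permutation test over all 70 relabellings gave p = 0.0571, where 0.0286 is the smallest p that it can give.

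Tap1 and Tap2 encode the subunits of the peptide transporter, and neither was called. Tap1 was at 6.82, 6.79, 5.47 and 7.74 FPKM in ND mice 1, 3, 6 and 7, and at 11.4, 14.5, 7.46 and 10.3 FPKM in HFrD mice 1, 2, 5 and 7. HFrD mouse 5 fell below ND mouse 7, and HFrD mouse 2 stood at the top. The log2 fold change was 0.60 (SE 0.17), close to that of H2-Q4, with a limma adjusted p of 0.0595. Without HFrD mouse 5 it would be called, at an adjusted p of 0.0239.

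Tap2 was at 3.94, 4.04, 3.65 and 4.68 FPKM in ND mice 1, 3, 6 and 7, and at 5.43, 5.32, 5.12 and 5.55 FPKM in HFrD mice 1, 2, 5 and 7. The HFrD libraries were tightly grouped and all above the ND libraries. The log2 fold change of 0.33 (95% interval 0.10 to 0.55) did not pass (limma adjusted p = 0.0694). The ratio of Tap1 to Tap2 FPKM was no more than 1.73 in ND libraries and 1.46 to 2.72 in HFrD libraries, and HFrD mouse 5 was below all ND libraries in it.

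Tapbp encodes tapasin, the bridge between TAP and the heavy chain. It was at 27.7, 30.9, 23.9 and 29.9 FPKM in ND mice 1, 3, 6 and 7, and at 38.0, 35.9, 35.4 and 40.2 FPKM in HFrD mice 1, 2, 5 and 7. The groups were separated by 4.42 FPKM. Tapbp rose by a log2 fold change of 0.40 (SE 0.10, limma adjusted p = 0.0295). The call was lost without ND mouse 1 or 6 or without HFrD mouse 2, 5 or 7, with an adjusted p of up to 0.0804.

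**Figure D3:**
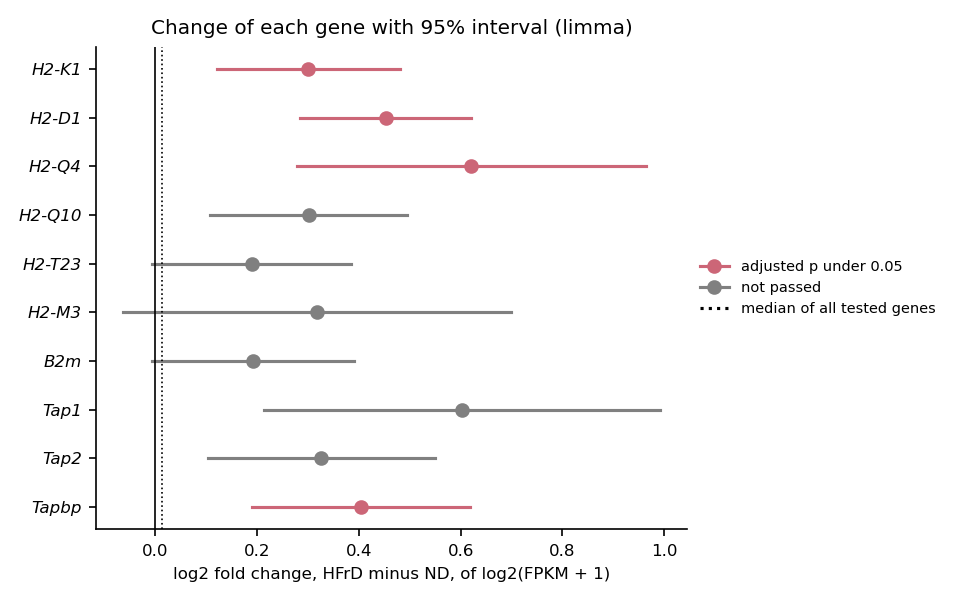
Log2 fold change of log2(FPKM + 1), HFrD minus ND, for each member (x axis), with its 95% interval from limma as a bar. Red genes have an adjusted p under 0.05 and grey genes do not, and the intervals of H2-T23, H2-M3 and B2m reach below 0, whereas the dotted line is the median of all tested genes at 0.01.

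The rank of the mice was shared by some members only. ND mouse 7 was the highest ND library for 7 of the 10 genes and ND mouse 6 the lowest for 7. Among HFrD libraries, mouse 5 was the lowest for 6 genes and mouse 7 the highest for 5, but mouse 7 was also the lowest for 2, H2-K1 and H2-D1, for which mouse 1 was the highest. Each member was also correlated with the mean of the standardized log2(FPKM + 1) of the 10 members over the 8 libraries. This r, a description in which each gene is part of the mean and all points share the diets, was 0.99 for Tap2, 0.95 for H2-Q10, 0.93 for H2-D1 and 0.69 for B2m. After the mean of each diet was taken off, it was 0.94 for Tap2 and -0.10 for B2m, so that the light chain did not follow the other members among mice of 1 diet.

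The leading heavy chains took similar shares in both diets, whereas the share of H2-D1 did not overlap between them. H2-Q10 made up 51.3 ± 1.29% of the summed FPKM of the 6 heavy chains in ND and 50.9 ± 2.33% in HFrD libraries (SD, n = 4). H2-K1 made up 30.4 ± 1.10% and 30.2 ± 1.48%. H2-D1 made up 10.2 ± 0.236% and 11.3 ± 0.743%, with every HFrD library above every ND library. H2-T23 made up 7.36 ± 0.307% in ND and 6.76 ± 0.374% in HFrD libraries, with overlap. These shares were not tested. The sum itself was 1182 ± 74.9 FPKM in ND and 1468 ± 37.6 FPKM in HFrD libraries. B2m over this sum was 0.780 ± 0.0760 in ND and 0.716 ± 0.0574 in HFrD libraries.

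A ratio to B2m within each library is free of the scaling between libraries. None of the 9 ratios passed an exact two-sided permutation test over 70 relabellings after adjustment over the 9, and the lowest adjusted p was 0.257. The smallest exact p is 0.0286, so a ratio that alone reached it could not pass after this adjustment. The log2 ratio of Tapbp to B2m was 0.22 higher in HFrD, without overlap (exact p = 0.0286 before adjustment). That of H2-D1 to B2m was 0.26 higher (exact p = 0.0571 before adjustment). The log2 ratio of H2-T23 to B2m was -3.40 in both diets. Unlike changes of a heavy chain and the light chain were therefore not resolved with 4 mice per diet.

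**Figure D4:**
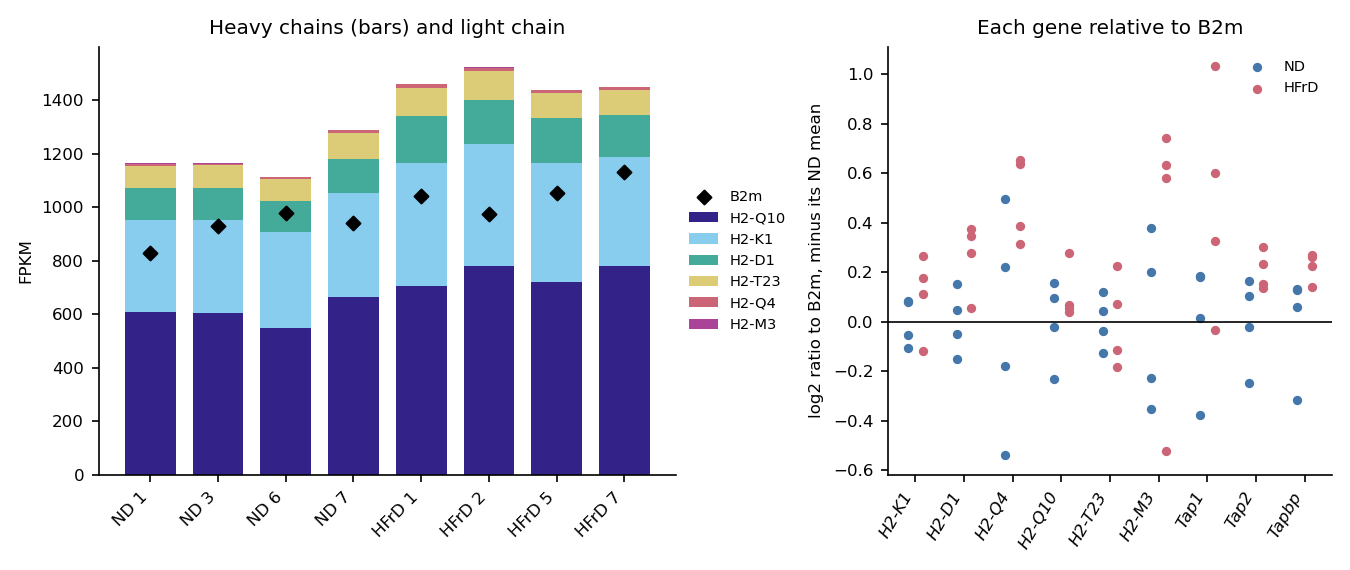
Left, FPKM of the 6 heavy chain genes stacked for each library, with B2m as black diamonds, where the stacks are taller in all 4 HFrD libraries and B2m overlaps between diets. Right, log2 ratio of each of 9 members to B2m in each library, less the ND mean of that ratio, with ND in blue and HFrD in red, in which Tapbp is the gene whose diets do not overlap.

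Related class I genes showed changes in both directions. Of 31 further class I and class I-like genes, 13 could be tested, with 3 called higher (H2-Q1, H2-Q7 and Mr1), 2 called lower (Cd1d1 and Azgp1) and 8 not called. The median log2 fold change was 0.07. H2-Q7, a heavy chain gene of the Qa-2 group, was at 12.4 ± 2.11 FPKM in ND and 28.6 ± 5.72 FPKM in HFrD libraries (SD, n = 4), without overlap, a log2 fold change of 1.13 (SE 0.16, limma adjusted p = 0.00320). H2-Q1 was at 1.55 to 1.94 FPKM in ND and 3.71 to 6.79 FPKM in HFrD libraries, with a log2 fold change of 1.12 (limma adjusted p = 0.00294). H2-Q1 and H2-Q7 thus changed by more than H2-Q4 or H2-Q10 on the same scale, although the difference between genes was not tested. H2-Q1 also shares stretches of sequence with H2-D1 and H2-Q10, which were at far higher levels. H2-Q6, with a log2 fold change of 0.63, and H2-Q2, with 0.06, were not called (limma adjusted p = 0.0745 and 0.889).

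Mr1, whose protein shows vitamin B metabolites of microbes to MAIT cells, rose from 2.07 ± 0.135 to 5.53 ± 1.20 FPKM (SD, n = 4), with a log2 fold change of 1.07 (limma adjusted p = 0.00273). Cd1d1, whose protein shows lipids to NKT cells, was at 158, 138, 129 and 135 FPKM in ND mice 1, 3, 6 and 7, and at 129, 93.0, 82.8 and 82.6 FPKM in HFrD mice 1, 2, 5 and 7. HFrD mouse 1 was within 1 FPKM of the lowest ND library. The log2 fold change was -0.55 (SE 0.14, limma adjusted p = 0.0392). Azgp1, a secreted class I-like protein, had a log2 fold change of -0.32 (limma adjusted p = 0.0481). The calls of Cd1d1 and Azgp1 were each kept in 1 of the 8 fits with a library left out, that without HFrD mouse 1, whereas those of H2-Q1, H2-Q7 and Mr1 were kept in all 8.

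Of 8 loading and trimming partners, 1 was lower and 0 were higher, with a median log2 fold change of -0.16. The lower gene was Erap1, the aminopeptidase that trims peptides in the endoplasmic reticulum, at 39.1 to 41.8 FPKM in ND and 30.6 to 35.4 FPKM in HFrD libraries. Its log2 fold change was -0.29 (SE 0.08, limma adjusted p = 0.0420), and its call was kept in 1 of the 8 fits with a library left out, that without HFrD mouse 1. The chaperones Calr, with means of 462 and 419 FPKM in ND and HFrD, and Pdia3, with 173 and 155 FPKM, were not called (limma adjusted p = 0.477 and 0.499). Tapbpl and Sec61a1 were above all ND libraries in every HFrD library but were not called either (limma adjusted p = 0.109 and 0.0946). Bcap31 was below all ND libraries in every HFrD library, with a log2 fold change of -0.17, and was not called (limma adjusted p = 0.188).

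Of 7 immunoproteasome and activator genes, 0 were called. Psmb9, which shares a promoter region with Tap1, was at 3.55, 5.70, 4.25 and 7.76 FPKM in ND mice 1, 3, 6 and 7, and at 7.17, 9.01, 8.72 and 8.94 FPKM in HFrD mice 1, 2, 5 and 7. Its log2 fold change was 0.62 (SE 0.19, limma adjusted p = 0.0659). Psmb8, next to Tap2, had a log2 fold change of 0.65 (SE 0.21, limma adjusted p = 0.0840). The third inducible subunit, Psmb10, was at -0.01. The constitutive counterparts Psmb5, Psmb6 and Psmb7 ranged from 0.03 to 0.10, and 0 of 3 were called.

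Of 24 genes for transcriptional regulators of class I and for interferon receptors, Irf7 and Stat2 were called higher. In this list, 0 were called lower and 22 missed the threshold. Irf7, a factor that drives type I interferon genes, was at 13.1 ± 1.32 FPKM in ND and 27.1 ± 5.37 FPKM in HFrD libraries (SD, n = 4), without overlap, a log2 fold change of 0.98 (limma adjusted p = 0.00348). Stat2, a subunit of the interferon-activated complex ISGF3, had a log2 fold change of 0.58 (limma adjusted p = 0.0168), and its call was lost without ND mouse 1, at an adjusted p of 0.0519. The class I transactivator gene Nlrc5 had a log2 fold change of 0.14.

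Of 39 tested interferon-induced genes, 9 were higher and 0 lower, with a median log2 fold change of 0.54. They were Ifit3, Ifi44, Oasl2, Oas1a, Oas2, Oas3, Bst2, Gbp3 and Gbp7. Bst2, whose protein tethers budding virus particles, was at 35.5 to 48.7 FPKM in ND and 67.4 to 75.3 FPKM in HFrD libraries (log2 fold change 0.74, limma adjusted p = 0.00300). Ifi44 was at 0.879 to 1.78 FPKM in ND and 3.87 to 7.86 FPKM in HFrD libraries (log2 fold change 1.41, limma adjusted p = 0.00375). The calls of Ifi44, Bst2, Oas1a, Oas2 and Oas3 were kept with each of the 8 libraries left out in turn, and those of Gbp7, Ifit3, Gbp3 and Oasl2 in 2, 3, 4 and 4 of these fits. Iigp1, the gene of this list with the highest level, had means of 173 and 152 FPKM in ND and HFrD and was not called (limma adjusted p = 0.369). Of 7 tested class II genes, H2-Ab1 and H2-Eb1 were higher and 0 lower, with calls kept in 1 and 4 of the 8 fits.

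**Figure D5:**
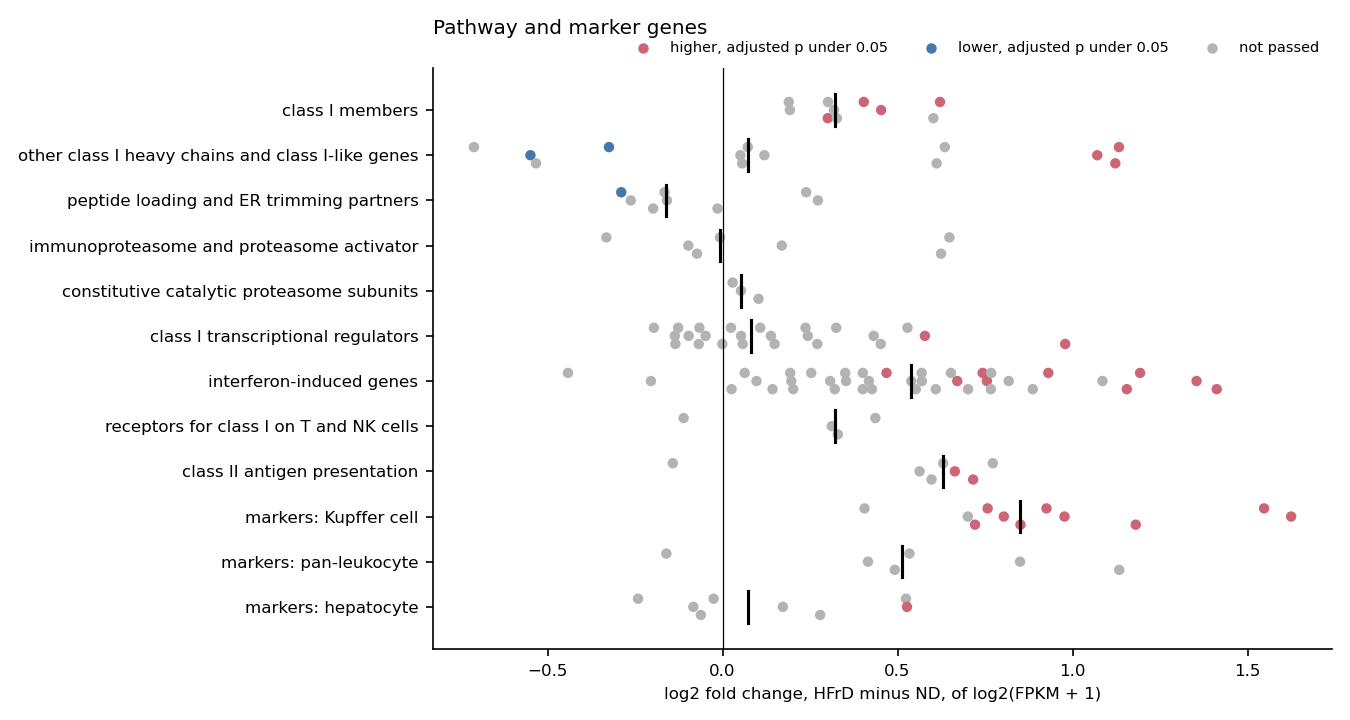
Log2 fold change of log2(FPKM + 1), HFrD minus ND (x axis), of each tested gene of the members and of the lists named at the left, with red for genes called higher, blue for genes called lower and grey for the others, and a black bar at the median. The medians are 0.32 for the members, 0.54 for interferon-induced genes, 0.85 for Kupffer cell markers and 0.07 for hepatocyte markers.

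Cell type markers were compared beside these results. Of 11 tested Kupffer cell markers, 9 were higher, and their summed level was 93.4 to 149 FPKM in ND and 195 to 283 FPKM in HFrD libraries, without overlap and with none at 0. Of 7 sinusoidal endothelial markers, 2 were higher, with sums of 85.5 to 111 FPKM in ND and 112 to 123 FPKM in HFrD libraries. Of 6 pan-leukocyte markers, 0 were called, and their sums overlapped at 48.6 to 55.8 and 48.3 to 67.2 FPKM, with a median log2 fold change of 0.51. Lcp1, singled out after its values were seen, made up most of these sums, with means of 41.2 FPKM in ND and 36.9 FPKM in HFrD and a log2 fold change of -0.16. The other 5 had log2 fold changes of 0.42 to 1.13, none called, and summed to at most 14.7 FPKM in ND and at least 14.0 FPKM in HFrD libraries, and Ptprc among them did not overlap between the diets. T and NK cell markers summed to 1.78 to 3.56 FPKM in ND and 1.54 to 2.72 FPKM in HFrD libraries, and 8 of them, Cd8a and Cd3e included, were below the filter. Receptors for class I were likewise at low levels, and 0 of 4 tested were called. Of 8 hepatocyte markers, 1 was higher, with sums of 35197 to 43879 FPKM in ND and 43006 to 50976 FPKM in HFrD libraries, which marks the tissue as liver. Alb made up most of these sums, with means of 27975 FPKM in ND and 33791 FPKM in HFrD, and was not called (limma adjusted p = 0.281). The median log2 fold change of the hepatocyte markers was 0.07. The part of these cell types in the class I values was not tested.

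The genes are clustered, apart from B2m on chromosome 2. The other 9 lie on chromosome 17 between 33915899 and 37274484 on GRCm38 (GENCODE release M21), a span of 3.36 Mb. Tapbp lies at chr17:33915899-33929292, Tap1 at chr17:34187553-34197225, Tap2 at chr17:34203527-34216321 and H2-D1 at chr17:35262730-35267499. In this span, which was chosen after the values were seen, 88 other genes were tested, of which 5 were higher (C4b, H2-Ab1, H2-Eb1, H2-Q1 and H2-Q7) and 1 was lower (C2), with a median log2 fold change of 0.08. Over all tested genes, 5.44% were called higher and 3.69% lower, so the share called higher in the span was near that of all genes.

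Related and overlapping genes limit single values. The authors' table gives H2-D1 and H2-Q4 the same locus, together with Ddx39b, H2-Q1, H2-Q2 and H2-Q6. H2-T23 has the same locus there as H2-T24 and H2-T22, the latter at 37.5 to 47.8 FPKM over the 8 libraries. Tap2 has the same locus as Gm15821 and Psmb8, the latter at 7.29 to 19.8 FPKM. In the longest protein-coding transcript of each gene in GENCODE M21, 24.3% of the 50-base windows of H2-Q4, 28.8% of those of H2-T23 and 14.3% of those of H2-D1 occur in another gene as well. At 150 bases, as many as the sequencing cycles, the shares were 0% for H2-K1, H2-Q4 and H2-Q10, 0.831% for H2-T23 and 1.79% for H2-D1. H2-Q1 was the gene that shared the most such windows with H2-D1, at 50 and at 150 bases, and with H2-Q10 at 50 bases. The values of these heavy chains, H2-Q1 included, are therefore uncertain to the extent that fragments from shared stretches were split between them. Tap1 overlaps Psmb9 on the other strand at its start, and Psmb9 was at 3.55 to 9.01 FPKM over the 8 libraries, near the level of Tap1, with a log2 fold change of 0.62, so that the values of the pair are uncertain where strand was not used in counting. B2m overlaps Patl2 on the other strand, which was at 0 to 0.0787 FPKM. Tapbp overlaps Zbtb22 on the same strand, so strand does not separate that pair. Zbtb22 was at no more than 6.19 FPKM in any library and had a log2 fold change of 0.06 (limma adjusted p = 0.835).

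Outside the members, the tested genes whose log2(FPKM + 1) followed the mean of the standardized members most closely over the 8 libraries were Serpina3g (r = 0.99), Sod3 (0.98), Ltbp4 (0.98), Srrm4 (0.98) and Snx33 (0.97). After the mean of each diet was taken off, they were Micu2 (0.98), H2-Q2 (0.97), Cdk5rap3 (0.96), Emc9 (0.96) and Srrm4 (0.96). These r are the highest of 11466 non-member genes and are given as a description.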

How the data were processed

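Liver RNA-Seq of 8 mice, 4 per diet, was analysed. The deposited table gives FPKM made by the authors for 22564 genes, 1 value per library, with no pooling. Per the submitters' processing notes and the paper, reads were trimmed with cutadapt 1.9.3 and aligned to mm10 with HISAT2 2.0.4. The notes also name Cufflinks and Cuffdiff. The annotation release and strand setting are not given in the sources used here. The labels name a TruSeq stranded kit and the paper a NEBNext directional kit. Columns of the authors' own comparisons (fold changes and p-values) were not used.

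The deposited FPKM were put on a scale of log2(FPKM + 1). A fold change on this scale understates that of genes with low FPKM. limma 3.58.1 (R 4.3.3; eBayes with a trend, two-sided) was fitted to the 11476 genes whose mean reached 0.5 FPKM, with Benjamini-Hochberg adjustment. Single values were compared by exact permutation over 70 relabellings. Nothing in the labels gives a batch. Relative depth, from the commonest ratio of low FPKM to ND mouse 1, was 0.990 to 1.17 in ND and 1.13 to 1.49 in HFrD libraries, and 13755 to 13973 and 14053 to 14392 genes were above 0. The procedure was tested on simulated data. Python 3.11.15 was used with matplotlib 3.10.9, numpy 2.4.6 and pandas 2.3.3.

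The members and lists were chosen with earlier results of these data known. The genes named are all members, any gene of the pathway lists (at least the 3 with the smallest adjusted p and the 2 with the highest FPKM), and the 5 genes most alike by each measure. A gene that this rule would name is not reported here. In the list of further class I genes, 10 were below the filter and 8 symbols matched no gene. Alternatives tried were a filter at 1 FPKM, no filter, a pseudocount of 0.1, quantile normalization, equal medians, no variance trend, array weights, the mouse number as a block, the ratio of FPKM + 1, and each library left out. Leaving out HFrD mouse 1 together with ND mouse 7 was an alternative chosen after seeing the data. MeRIP-Seq samples were not analysed here.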

Additional observations from a re-analysis of the deposited data

Results flagged for a closer look

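In 53 named genes, 106 groups of 4 libraries were checked for a library far from the other 3 of its diet, and 7 were found, where chance gives about 1 in 20. None was a member. Azgp1 was at 735 FPKM in ND mouse 6 against 685 to 693 in the others. H2-Q2 was at 0.321 FPKM in HFrD mouse 5 against 0.695 to 0.770. Ifi44 was at 7.86 FPKM in HFrD mouse 2 against 3.87 to 4.37. Irf3 was at 31.1 FPKM in ND mouse 7 against 25.6 to 26.3. Pirb was at 0.593 FPKM in HFrD mouse 2 against 1.57 to 1.72. Psmb9 was at 7.17 FPKM in HFrD mouse 1 against 8.72 to 9.01. Sec61a1 was at 77.6 FPKM in HFrD mouse 1 against 66.9 to 67.1.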

How the results depend on the processing

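Over 17 alternatives, the log2 fold change of all 10 members stayed above 0, the lowest being 0.14 for B2m, and 135 of 170 member values kept their side of the threshold, 27 lost the call and 8 gained it. Of 2856 values of other named genes and ratios, 2654 kept their side of the threshold, 150 lost the call and 52 gained it. In 0 of them was a call turned to the opposite direction. Genes that were not called could change sign, such as Oasl1, at 0.40 without and -0.21 with the mouse number as a block. The block fit compares the diets in mice 1 and 7 only. Members called higher numbered 2 with no filter (H2-D1 and Tapbp), and H2-K1 was also lost without a variance trend. With 1 library left out, they ranged from 1 to 6, all changed genes from 538 to 1296, genes higher in HFrD from 340 to 661 and genes lower in HFrD from 184 to 635. Without HFrD mouse 1 and ND mouse 7 together, 4 members were called (H2-K1, H2-D1, H2-Q10 and Tapbp), and genes lower in HFrD numbered 696. The causes were not tested.

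The mouse numbers 1 and 7 occur in both diets but name different mice. Deviations from the diet means had an r of 0.08 and -0.01 between same-numbered mice. Over all pairs of an ND and an HFrD library, r ran from -0.14 to 0.11. With 2 shared numbers, this cannot decide whether the numbers pair the samples, which were treated as unpaired. With the mouse number as a block, 2 genes were changed, 2 higher and 0 lower, and 0 members were called higher. That fit compares the diets in mice 1 and 7 only, because every other number occurs in 1 diet. Its counts therefore rest on fewer libraries and cannot be set beside those of the main fit. The lack of counts limits all values: no counting error can be given.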
